A study of Mus musculus with 2 samples.

Results

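The proteasome genes described here are the 49 protein-coding genes whose symbol is Psma, Psmb, Psmc, Psmd, Psme, Psmf or Psmg followed by a number, out of 43346 Ensembl genes (21474 of them protein-coding) listed for heart. The RNA was poly(A)-selected and came from 1 animal, an adult female C57BL/6J mouse of 10 weeks whose heart was extracted with the RNeasy Lipid Tissue Mini Kit. There were 2 libraries, technical replicates 1 and 2 of that 1 biological replicate, and replicate 2 was made after the publication that used replicate 1. No treatment, genotype or second animal was compared, so every spread given is technical and covers 1 mouse.

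The proteasome is the protease that degrades most proteins tagged with ubiquitin. Its barrel-shaped core is built of stacked rings, with alpha subunits outside, which gate the entrance, and beta subunits inside, some of which cut peptide bonds. A regulatory particle of ATPase and non-ATPase subunits binds ubiquitinated proteins, removes the ubiquitin, unfolds them and feeds them into the core. Interferon-inducible beta subunits can replace the catalytic ones to form the immunoproteasome, other caps (PA28 and PA200) open the core without ubiquitin, and dedicated chaperones assemble the rings. In heart muscle the proteasome turns over damaged and sarcomeric proteins.

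The libraries differed before any proteasome gene was considered. Mitochondrially encoded genes and their nuclear copies held 92.8% of TPM (an abundance corrected for transcript length and for library size) in replicate 1 and 60.9% in replicate 2, which left 5028154 and 12654724 nuclear counts. The mean GC content of these nuclear counts was 45.0% in replicate 1 and 50.5% in replicate 2. Levels are therefore given as nuclear TPM, which is TPM rescaled without mitochondrial genes and copies. Heart muscle markers were present in both libraries, with all 7 at 1 TPM or more in each. The testis markers Prm1, Prm2 and Tnp1 had no count in either.

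Proteasome RNA as a whole took shares of the nuclear counts that differed by less than counting error between the libraries, while its split between subunits differed widely. The 49 genes held 0.425% of nuclear counts in replicate 1 (95% Wilson interval 0.420 to 0.431) and 0.424% in replicate 2 (0.421 to 0.428), from 21382 and 53689 counts. Intervals cover counting error only. The match holds for the sum of all 49 genes. Psme4 alone gave 31.9% of these counts in replicate 1 and 11.4% in replicate 2. Without it, the other genes held a smaller share of nuclear counts in replicate 1 than in replicate 2. Their summed nuclear TPM was 6932 and 5757, or 6344 ± 831 (mean and SD, n = 2 libraries). At least 1 count was found for 48 of the 49 genes in each library, and at least 1 nuclear TPM for 45 and 47. In bulk RNA a smaller number of cells of a type and less RNA per cell cannot be told apart.

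**Figure D1:**
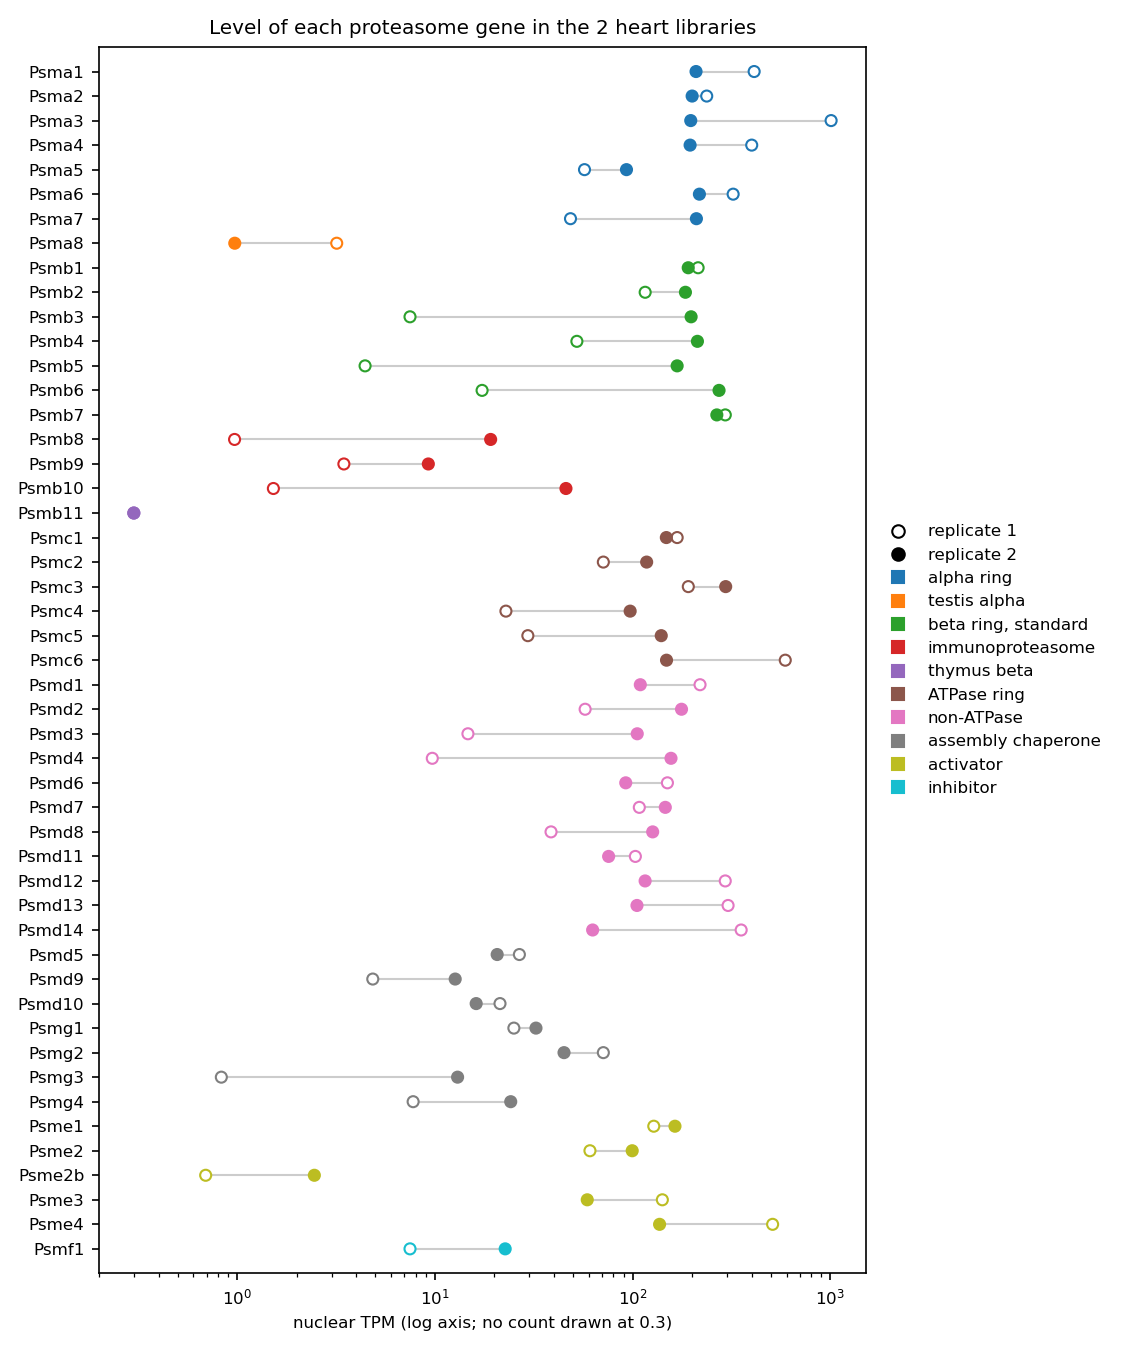
Level of each of the 49 proteasome genes in nuclear TPM (log axis), with replicate 1 as open and replicate 2 as filled circles joined by a line, coloured by role. The standard core subunits of replicate 2 (Psma1 to Psma7 and Psmb1 to Psmb7) lie close together, between 93.1 and 273, while those of replicate 1 reach from 4.43 to 1009.

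The 14 standard core subunits, which assemble in equal numbers into each core, had RNA levels that lay closer together in replicate 2 than in replicate 1. In replicate 2 they ranged from 93.1 nuclear TPM for Psma5 to 273 for Psmb6, a 2.94-fold range with a coefficient of variation of 21.04%. In replicate 1 they ranged from 4.43 for Psmb5 to 1009 for Psma3, a 228-fold range with a coefficient of variation of 118%. After the GC trend between the libraries was taken out of replicate 1, a step added after the data were seen, its range was 15.7-fold. With only protein-coding transcripts summed, the core subunits ranged from 36.5 to 259 in replicate 2 and from 2.77 to 404 in replicate 1, and Psma3 was then the lowest of replicate 2. Over all 49 genes the levels of the libraries had a Pearson r of 0.70 and a Spearman rho of 0.57 on the log2(nuclear TPM + 1) scale. That is a description across genes, which are not independent replicates.

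The alpha ring summed to 2485 nuclear TPM in replicate 1 and 1322 in replicate 2. Psma3 (alpha7) had the highest level of all proteasome genes in replicate 1, 1009, and 197 in replicate 2. Psma1 (alpha6) had 412 and 209, and Psma4 (alpha3) had 400 and 195. These 3 were the highest of the ring by mean, and all 3 lay higher in replicate 1. The lowest of the ring were Psma5 (alpha5), with 57.1 and 93.1, and Psma7 (alpha4), with 48.5 and 210, both higher in replicate 2. The remaining alpha subunits, Psma2 and Psma6, had 237 and 322 in replicate 1 and 200 and 218 in replicate 2. Over protein-coding transcripts alone Psma3 had 175 and 36.5, below Psma1 (404 and 206) and Psma4 (387 and 191).

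The standard beta ring went the other way, with 706 nuclear TPM in replicate 1 and 1494 in replicate 2. Its highest members by mean were Psmb7 (beta2, the trypsin-like site), with 294 and 267, and the non-catalytic Psmb1 (beta6), with 214 and 191. Psmb2 (beta4) followed with 116 and 185. The lowest were Psmb5 (beta5, the chymotrypsin-like site and main target of proteasome inhibitors), with 4.43 and 168, and Psmb3 (beta3), with 7.48 and 198. Psmb5 rested on 7 counts in replicate 1 and 866 in replicate 2, and Psmb3 on 13 and 871. Psmb6 (beta1, the caspase-like site) had 17.3 and 273, and Psmb4 (beta7) 52.2 and 213. The 3 catalytic subunits were thus within 168 to 273 in replicate 2 but between 4.43 and 294 in replicate 1. Over protein-coding transcripts alone Psmb7 had 95.6 and 250, and Psmb2 had 2.77 and 178.

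The regulatory particle had similar sums in both libraries. The 6 ATPase genes, whose ring unfolds substrates, summed to 1074 and 946 nuclear TPM, and the 11 non-ATPase genes to 1652 and 1272. Psmc6 (Rpt4) had 591 in replicate 1 and 148 in replicate 2. Psmc3 (Rpt5), the highest proteasome gene of replicate 2, had 191 and 295, and Psmc1 (Rpt2) had 168 and 148. The lowest ATPases by mean were Psmc4 (Rpt3), with 22.9 and 97.1, and Psmc5 (Rpt6), with 29.5 and 140. By mean, Psmc2 (Rpt1) lay between them and the rest, with 71.1 and 118.

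Among the non-ATPase subunits the deubiquitinase Psmd14 (Rpn11) had the highest mean, with 354 nuclear TPM in replicate 1 and 62.7 in replicate 2. It was followed by the lid subunits Psmd12 (Rpn5), with 294 and 116, and Psmd13 (Rpn9), with 304 and 105. All 3 had more nuclear TPM in replicate 1, and Psmd14 was, over all transcripts, the lowest non-ATPase subunit of replicate 2. Over protein-coding transcripts Psmd14 had 116 and 61.9, below Psmd12 (294 and 116) and Psmd1 (205 and 108). The level of Psmd13 in replicate 1 rests on 1 unnamed transcript with 12.98 of the gene's 21.93 TPM from 0.69 counts. Over protein-coding transcripts Psmd13 had 111 and 52.5, and by counts it was called higher in replicate 2 (log2 ratio 1.05, edgeR adjusted p 1.9e-20). The lowest by mean were the lid subunits Psmd3 (Rpn3), with 14.7 and 105, and Psmd8 (Rpn12), with 38.7 and 126. The ubiquitin receptor Psmd4 (Rpn10) had 9.70 and 156, and the scaffold subunits Psmd1 (Rpn2) and Psmd2 (Rpn1) had 219 and 109, and 57.5 and 177. Psmd6, Psmd7 and Psmd11 lay between 103 and 150 in replicate 1 and between 75.6 and 146 in replicate 2.

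The activators were led by Psme4, which encodes PA200, a large nuclear cap. Psme4 had 510 nuclear TPM in replicate 1 and 137 in replicate 2. Its transcript is long, and long transcripts give more counts at the same TPM. Psme4 alone gave 31.9% of all proteasome counts in replicate 1 (95% Wilson interval 31.3 to 32.6) and 11.4% in replicate 2 (11.1 to 11.7). Psme3 (PA28gamma, also nuclear) had 141 and 58.9. Of the interferon-inducible cytoplasmic PA28 subunits, Psme1 (alpha) exceeded Psme2 (beta) in both libraries, with 128 and 164 against 60.8 and 99.5. The log2 ratio of Psme1 over Psme2, from (TPM + 0.1), was 0.89 ± 0.24 (SD, n = 2 libraries), and that of Psme4 over Psme3 was 1.53 ± 0.45.

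Psme2b, a single-transcript gene closely related to Psme2, had 1.05 and 12.0 expected counts. It is one of 8 proteasome genes with a count that is not whole (tolerance 0.001), the mark of reads shared with another gene. The posterior SD of its count was 0.24 and 0.35, the same as for Psme2, so its level is uncertain. The others were Psma3, Psma5, Psmb3, Psmb5, Psmd11, Psmd2 and Psme2, with posterior SDs of at most 4 counts.

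The inhibitor and the assembly chaperones were low. Psmf1 (PI31, which binds the core) had 7.48 nuclear TPM in replicate 1 and 22.7 in replicate 2. The 7 chaperones summed to 158 and 164. Of those that build the core, Psmg2 (PAC2) had 71.1 and 45.0, its partner Psmg1 (PAC1) 25.1 and 32.4, Psmg4 (PAC4) 7.76 and 24.2, and Psmg3 (PAC3) 0.83 and 13.0. Psmg3 rested on 1 count in replicate 1 and 72 in replicate 2, and Psmg4 on 6 and 57. Of those that build the ATPase ring, Psmd5 (S5b) had 26.7 and 20.6, Psmd10 (gankyrin) 21.3 and 16.2, and Psmd9 (p27) 4.85 and 12.7. The summed level of the chaperones differed by 1.04-fold between the libraries, and by 1.11-fold over protein-coding transcripts alone.

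The inducible catalytic subunits were detected at low levels in this heart. Psmb8 (beta5i) had 0.97 nuclear TPM in replicate 1 and 19.1 in replicate 2, Psmb9 (beta1i) 3.46 and 9.26, and Psmb10 (beta2i) 1.52 and 46.0. They rested on 4, 2 and 4 counts in replicate 1 and on 140, 77 and 376 in replicate 2. In replicate 1 the 4 counts of Psmb8 lay on the retained-intron Psmb8-202, so its protein-coding transcripts had 0 nuclear TPM there. The 2 counts of Psmb9 lay on the 433-base Psmb9-202, which held 0% of the gene's abundance in replicate 2. Psmb8 and Psmb9 lie near each other on chromosome 17 (chr17:34197721-34201454 and chr17:34181987-34187764, mm10), within the major histocompatibility complex, and Psmb10 on chromosome 8 (chr8:105935735-105938444). All 3 were below their standard partner in both libraries, with every log2 ratio of (TPM + 0.1) above 0.

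Without adjustment for GC content, how far below differed between the libraries beyond counting error for Psmb7 and Psmb10. The log2 ratio of Psmb5 over Psmb8 was 1.30 in replicate 1 and 3.12 in the other library (mean 2.21 ± 1.28, SD, n = 2 libraries). That of Psmb6 over Psmb9 was 1.95 and 4.85 (3.40 ± 2.05), and that of Psmb7 over Psmb10 was 6.67 and 2.53 (4.60 ± 2.93). With the GC trend taken out of replicate 1, these means were 2.59, 3.94 and 3.06, in the same order. As counts per effective length, Psmb7 exceeded Psmb10 by 186-fold in replicate 1 (95% exact binomial interval 72.3 to 688) and by 5.80-fold in replicate 2 (5.19 to 6.49). For Psmb5 over Psmb8 and for Psmb6 over Psmb9 the interval of replicate 1 held the value of replicate 2. Psmb5 exceeded Psmb8 by 4.40-fold (1.12 to 20.5) and 8.77-fold (7.33 to 10.6). As a share of its pair's TPM, Psmb8 was 17.9% and 10.2%, Psmb9 16.7% and 3.28%, and Psmb10 0.52% and 14.7%. By counts per effective length, Psmb6 exceeded Psmb9 by 5.01-fold in replicate 1, with an interval of 1.23 to 43.9 set by 2 counts of Psmb9, and by 29.5-fold (23.5 to 37.7) in replicate 2.

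**Figure D2:**
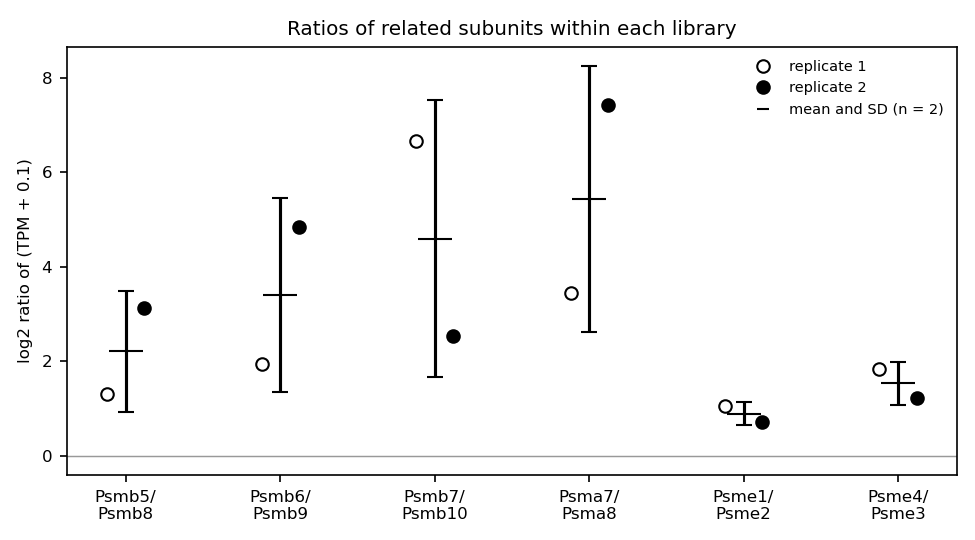
Log2 ratio of (TPM + 0.1) for 6 pairs of related subunits, with replicate 1 as an open circle, replicate 2 as a filled circle, and the mean and SD over the 2 libraries as bars. Every point lies above 0, and the Psmb7/Psmb10 and Psma7/Psma8 points differ most between libraries (6.67 and 2.53, 3.45 and 7.42).

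Tissue-restricted subunits were at or near the limit of detection. Psma8, the testis form of alpha4, had 11 counts in each library, or 3.19 and 0.97 nuclear TPM, against 48.5 and 210 for its standard counterpart Psma7. Psmb11 (beta5t, the thymus form of beta5; chr14:54621433-54629556) had no count in either library. A count of 0 allows up to 3 counts, which is 0.32 nuclear TPM in replicate 1 and 0.098 in replicate 2. Of the thymus markers Rag1, Ptcra and Dntt, only Dntt had a count, 1 in replicate 2.

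Whether a gene's share differed between the libraries was then tested on counts, with edgeR's two-sided exact binomial test over all 13182 genes with at least 20 counts in total. This test compares libraries of 1 animal, not conditions, and covers counting error only. Of 47 proteasome genes tested, 23 were called higher in replicate 2 (Benjamini-Hochberg adjusted p under 0.05 and at least 2-fold), beside 38.4% of all genes. Lower calls numbered 6, beside 27.2% of all genes. The median log2 ratio of replicate 2 over replicate 1 was 0.95 for the proteasome genes and 0.21 for all genes tested. Psmb11 and Psme2b had too few counts to be tested.

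The 6 lower genes came from 5 role classes. They were Psma3 (log2 ratio -1.51, adjusted p 8.8e-143), Psmc6 (-1.77, 4.0e-276), Psmd12 (-1.26, 5.9e-98), Psmd14 (-1.32, 4.5e-54), Psma8 and Psme4. For Psme4 the log2 ratio was -1.63, and its adjusted p was too small to be stored. For Psma8, with 11 counts in each library, the ratio of replicate 1 over replicate 2 was 2.77-fold (95% exact interval 1.09 to 7.05, adjusted p 0.031). All 6 had a transcript GC content between 37.0% and 44.8%.

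The higher genes included 5 of 7 standard beta subunits, all 3 inducible subunits, 3 of 6 ATPases, 5 of 11 non-ATPase subunits and 3 of 7 chaperones. They also included Psme1, Psme2, Psmf1 and, as the only alpha subunit, Psma7. Among those with low counts in replicate 1, Psmb5 was 44.7-fold higher (95% exact interval 21.6 to 111, adjusted p 1.1e-102) and Psmb10 33.9-fold (13.1 to 125, adjusted p 1.3e-43). Psmb3 was 24.2-fold higher (14.1 to 45.6), Psmb8 12.6-fold (4.83 to 47.0), Psmb9 13.9-fold (3.72 to 117) and Psmg3 25.99-fold (4.52 to 1041). The last intervals are wide because replicate 1 held 4 counts or fewer of those genes.

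The direction of the difference followed the GC content of the transcripts. All 18 genes with a GC content of 52% or more were called higher, and none of the 17 genes below 48% was, of which 6 were called lower. Between 48% and 52%, 5 of 12 were called higher. Over all ranges together, 38.4% of all genes were called higher and 27.2% lower. The share of all genes called within each range was not counted, so these counts do not set proteasome genes apart. Across the 47 genes the log2 ratio and GC content had a Pearson r of 0.89 and a Spearman rho of 0.93, and across 13155 genes of all kinds 0.85 and 0.90. These are descriptions across genes that share the same libraries. The lowest GC content was that of Psmc6, 37.0%, and the highest that of Psmd3, 58.1%. Proteasome genes of 52% or more had a median log2 ratio of 3.18, against 2.86 for all genes in that range. Between 48% and 52% the medians were 0.94 and 0.26.

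**Figure D3:**
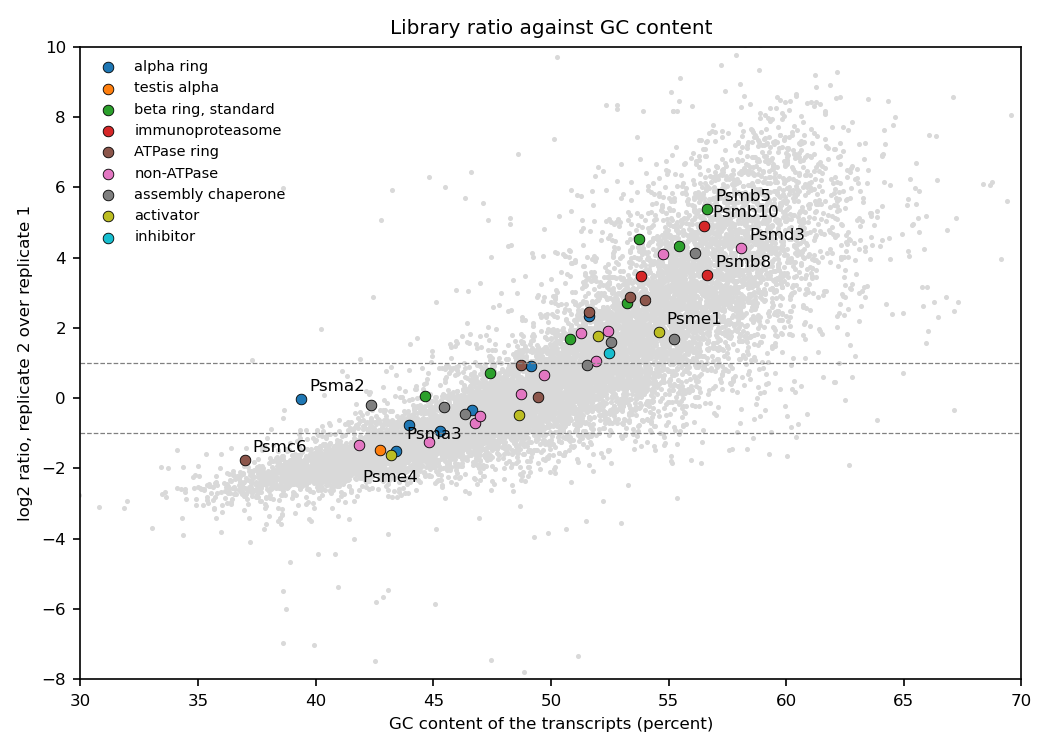
Log2 ratio of counts, replicate 2 over replicate 1, against the GC content of the transcripts, with proteasome genes coloured by role and all tested genes in grey; dashed lines mark 2-fold. The ratios of the proteasome genes rise with GC content, from Psmc6 (37.0%, -1.77) to Psmb5 (56.6%, 5.38). Their median lies above that of all genes below 44% (-1.40 and -1.77) and from 44% to 48% (-0.44 and -0.83), as in the higher ranges.

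With the GC trend of all genes removed, no proteasome gene was called lower and 16 were called higher, beside 10.9% and 10.2% of all genes. The median over the proteasome genes was then 0.55, and over all genes 0. The standard beta ring gave 7 of these 16, that is all of its members. Its GC-removed log2 ratios ran from 1.12 for Psmb4 to 2.91 for Psmb3, with 1.90 for Psmb5 and 1.55 for Psmb6. The others were Psma2, Psma7, Psmb10, Psmc2, Psmc4, Psmc5, Psmd2, Psmd4 and Psmd10. None of the tested activators, and not Psmf1, was called in either direction.

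This count includes genes whose annotated length differed between releases. GC content came from annotation release M21, while the tables used release M4, and for 6 genes (Psma2, Psmb1, Psmb7, Psmc6, Psmd13 and Psmd5) the M21 transcript length differed by more than 1.2-fold from the length in the tables. Without them, 13 of 41 genes were called higher after removal of the GC trend. The share of all genes was 10.2%, with no gene left out for its length. The 13 include 5 standard beta subunits, since Psmb1 (log2 ratio 1.16 with the trend removed) and Psmb7 (1.13) are among the 6. Of the inducible subunits, Psmb10 was called with the trend removed (1.43, adjusted p 0.036) and Psmb9 (1.55, 0.12) and Psmb8 (0.01, 1.00) were not.

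**Figure D4:**
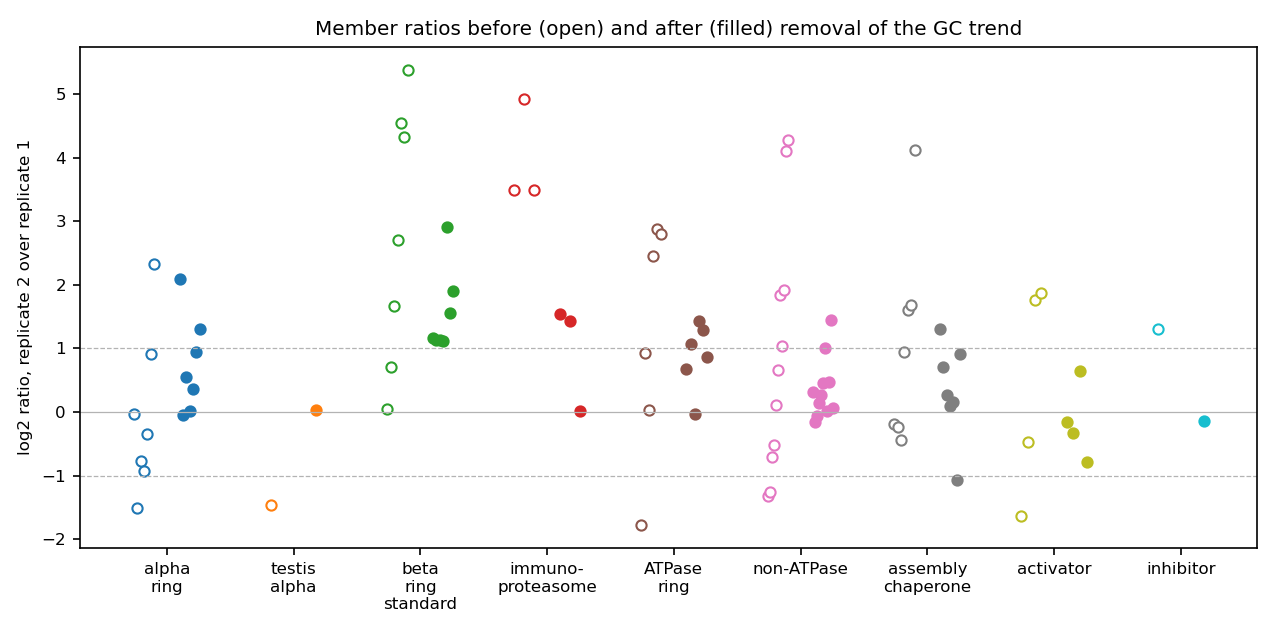
Log2 ratio of counts, replicate 2 over replicate 1, for the 47 tested genes by role, before (open) and after (filled) removal of the GC trend; within a role, genes run from low to high GC content and dashed lines mark 2-fold. After removal all 7 standard beta subunits lie above 1, of which Psmb1 (0.05) and Psmb7 (0.71) lay below 1 before it. The activators then lie between -0.78 and 0.64.

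Transcript shares differed between the libraries as well. Of 33 genes with more than 1 annotated transcript and at least 20 counts in each library, 19 had the same leading transcript in both and 14 did not. The share of a gene's TPM in transcripts annotated as protein-coding in M21 was lower in replicate 1 for 23 genes, higher for 4 and within 1 percentage point for 6. Its median was 91.3% in replicate 1 and 96.3% in replicate 2. It was under 90% for 16 genes in replicate 1 and for 3 in replicate 2. Transcript shares were not counted over all genes, so these counts do not set proteasome genes apart.

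Single genes show the size of these differences. For Psmb2, the non-coding Psmb2-202 held 85.4% of the gene's abundance in replicate 1 and 0% in replicate 2, where the coding Psmb2-201 held 96.5%. For Psmc3, the processed transcript Psmc3-205 held 69.99% and 0%. For Psmd14, the processed transcript Psmd14-202 held 67.0% and 0%, and the coding Psmd14-201 32.7% and 98.7%. Retained-intron transcripts led in replicate 1 for Psmb6 (Psmb6-202, 60.7% and 2.88%), Psmb7 (Psmb7-202, 67.5% and 6.22%), Psmc4 (Psmc4-205, 79.9% and 5.85%) and Psme2 (Psme2-206, 75.4% and 0%). Psma3 had a low coding share in both libraries, 17.4% and 18.5%. Its leading transcripts, Psma3-207 (64.9% in replicate 1) and Psma3-201 (42.5% in replicate 2), are annotated in M21 as targets of nonsense-mediated decay. Retained-intron transcripts of Psma3 held 11.4% and 35.8%.

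**Figure D5:**
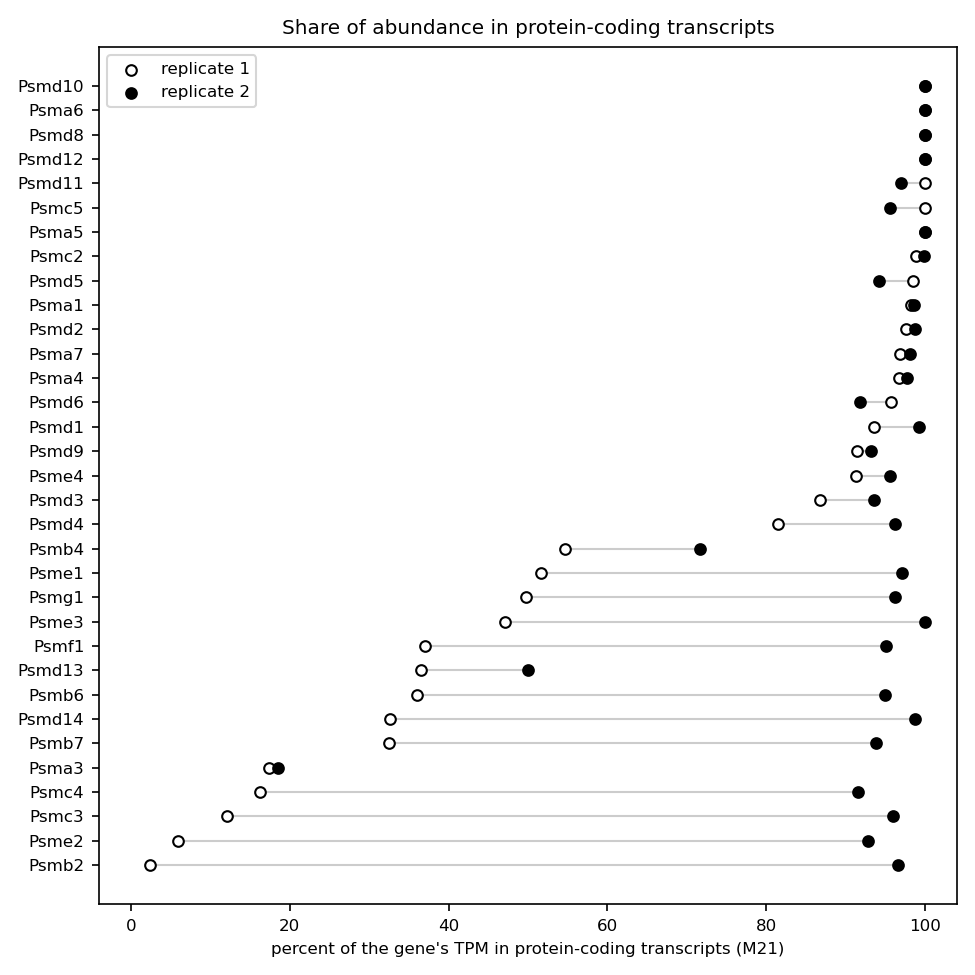
Percent of a gene's TPM in transcripts annotated as protein-coding in M21, for 33 proteasome genes with more than 1 transcript and at least 20 counts in each library, with replicate 1 open and replicate 2 filled. In replicate 1 the share falls as low as 2.40% (Psmb2), and in replicate 2 the lowest is Psma3 at 18.5%.

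Short transcripts raise TPM per count, so the choice of transcripts bears on the levels above. When only protein-coding transcripts were summed, a step added after the data were seen, the proteasome genes had 4827 nuclear TPM in replicate 1 and 5353 in replicate 2. The beta ring then had 358 and 1394, the alpha ring 1629 and 1150, and the non-ATPase subunits 1196 and 1192. For 5 genes (Psmb1, Psmb7, Psmc1, Psmd11 and Psmd13) nuclear TPM was lower in replicate 2 although the ratio of counts was above 1.

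Other genes of the ubiquitin and proteasome pathway, from lists chosen with earlier results of these data known, were read in the same way. Ubb, which encodes ubiquitin, had 39.8 nuclear TPM in replicate 1 and 976 in replicate 2 and was called higher. Rps27a, which encodes ubiquitin fused to a ribosomal protein, had 642 and 507 and was not called. Uba1, the main ubiquitin-activating enzyme, was called higher (67.1 and 118), and Uba6 lower (29.9 and 5.42). With the GC trend removed, Ubb (log2 ratio 2.90) and Uba1 (1.76) were still called higher, and Rps27a (0.19) and Uba6 (0.22) were not called.

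Proteins that bind or assist the proteasome leaned to the other side, with 5 of 16 called higher and 9 lower (38.4% and 27.2% of all genes). The highest by mean were Zfand5 (485 and 101 nuclear TPM), Ecpas, which tethers core and regulatory particle (292 and 83.1), the deubiquitinase Usp14 (285 and 57.3) and the shuttle factor Rad23b (242 and 95.5), and all of these were called lower. The deubiquitinase Uchl5 (148 and 27.4), Ubqln1 (112 and 43.6), Ubqln2 (56.0 and 20.5), Txnl1 (210 and 61.8) and Akirin2, which brings proteasomes into the nucleus (201 and 51.5), were also lower. With the GC trend removed, 2 of the 16 were called higher and 3 lower, beside 10.2% and 10.9% of all genes. Before that removal Adrm1, a ubiquitin receptor with a transcript GC content of 59.9%, was called higher (14.4 and 93.9). So was the assembly factor Pomp (87.4 and 193). After it Pomp stayed higher (log2 ratio 1.39) and Adrm1 was not called (-0.72).

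Regulators of proteasome transcription were expressed in both libraries, with 4 of 11 called higher and 2 lower, beside 38.4% and 27.2% of all genes. Nfe2l1, the factor that restores proteasome genes when the proteasome is inhibited, had 70.1 nuclear TPM in replicate 1 and 351 in replicate 2. Vcp, the segregase that extracts it from the endoplasmic reticulum, had 192 and 313, Nfe2l2 136 and 65.2, and Nfyc 42.7 and 69.6. The lower genes were Ngly1, which removes its sugars (85.5 and 26.8), and Nfyb (32.8 and 13.8). With the GC trend removed neither was called, and 1 of the 11 was called higher and 3 (Mafg, Maff and Mafk) lower, beside 10.2% and 10.9% of all genes.

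Genes of antigen processing and of the interferon response, the setting in which the inducible subunits are best known, varied with the libraries too. Of 8 antigen-processing genes, 5 were called higher in replicate 2 and 2 lower, beside 38.4% and 27.2% of all genes. B2m had 1499 and 459 nuclear TPM and Erap1 75.6 and 22.5, both lower, while H2-K1 had 26.7 and 152 and H2-D1 16.3 and 161, both higher. With the GC trend removed none of these was called, no gene of the list was higher and 1, Tapbp, was lower (log2 ratio -2.52). Of 9 interferon-response genes, 4 were called higher and none lower, beside the same shares of all genes. Gbp2 had 30.8 and 17.8 nuclear TPM, Irf9 24.1 and 17.1, and Ifit3 9.14 and 14.3, and none of these was called in that comparison. With the GC trend removed, 3 of the 9 were called higher and none lower, beside 10.2% and 10.9% of all genes. Ifit3 was then among the higher (log2 ratio 1.32), while Gbp2 and Irf9 were not called.

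Before the GC trend was removed, leukocyte markers were mostly called higher in replicate 2, as were the inducible subunits. Of 9 such markers, 7 were called higher in replicate 2 and 1, Ptprc, lower, beside 38.4% and 27.2% of all genes, and their summed level was 199 nuclear TPM in replicate 1 and 626 in replicate 2. None was at 0 in either library. Red cell markers summed to 996 and 12824, with 4 of 4 higher, and endothelial markers to 362 and 669, with 4 of 6 higher and Emcn lower. Fibroblast and mural markers had lower sums in replicate 2, at 2639 and 1063 (1 of 5 called higher, 2 lower) and at 1453 and 784 (4 of 5 called higher, 1 lower). With the GC trend removed, higher calls were 6 of 9 for leukocyte, 4 of 4 for red cell and 1 of 6 for endothelial markers. They were 0 of 5 for fibroblast and 3 of 5 for mural markers. Among these lists only fibroblast markers then had lower calls (2), beside 10.2% higher and 10.9% lower of all genes. Of the inducible subunits only Psmb10 was called with the trend removed. The part of all these cell types in the levels of Psmb8, Psmb9 and Psmb10 was not tested.

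Promoter sequence was the last feature compared. RefSeq windows (GRCm38.p6, from 250 bases before to 50 after the transcription start) were found for 41 of the 49 genes. There was none for Psma8, Psmb1, Psmb2, Psmb7, Psmc3, Psmd3, Psmd7 or Psmg2. Each of 5 motifs was searched on both strands, no matches of different motifs overlapped in these windows, and shares were set beside all 27025 genes of the same table. A match is a description of letters, not of binding, and no test was made. The median GC content of the windows was 57.3% for the proteasome genes and 52.7% for all windows, and its part in the shares of motifs was not tested.

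The nuclear respiratory factor 1 motif (GCGC, any base, then TGCGC) was in the windows of 7 of 41 proteasome genes (17.1%) and of 5.19% of all genes. The stretches upstream of the start are shown because this motif's share, of the 5 searched, differed most from that of all genes in percentage points, with the match in capitals and up to 20 bases on each side, written 5′ to 3′ on the gene's strand. The match in Psmg1, after the start, is not shown.
Psma2 (chr13:14613095-14613144, plus strand): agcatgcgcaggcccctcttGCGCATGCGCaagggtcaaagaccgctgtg
Psma3 (chr12:70974525-70974574, plus strand): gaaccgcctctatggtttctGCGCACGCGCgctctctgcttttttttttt
Psma4 (chr9:54950778-54950827, plus strand): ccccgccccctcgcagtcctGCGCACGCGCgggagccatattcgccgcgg
Psmc4 (chr7:28050232-28050281, minus strand): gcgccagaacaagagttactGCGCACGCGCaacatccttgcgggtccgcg
Psmc5 (chr11:106256116-106256165, plus strand): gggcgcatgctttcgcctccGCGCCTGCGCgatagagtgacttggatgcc
Psmd14 (chr2:61711594-61711643, plus strand): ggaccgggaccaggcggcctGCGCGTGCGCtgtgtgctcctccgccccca

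The matches in Psma3, Psma4 and Psmc4 share the same 10 letters. They lie in genes on opposite sides of the library comparison: Psma3 and Psmd14 were called lower, Psmc4 and Psmc5 higher, and Psma2 and Psma4 neither.

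The core of the antioxidant response element, TGACNNNGC, through which Nfe2l1 and Nfe2l2 act, was found in 6 of 41 genes (14.6%), beside 13.99% of all genes. They are shown because this element is the one best known for proteasome genes.
Psmb5 (chr14:54618014-54618062, minus strand): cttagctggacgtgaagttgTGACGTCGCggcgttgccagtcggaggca
Psmb6 (chr11:70525328-70525376, plus strand): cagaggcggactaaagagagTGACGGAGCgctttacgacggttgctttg
Psmc6 (chr14:45329577-45329625, plus strand): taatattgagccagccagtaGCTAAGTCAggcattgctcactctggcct
Psmd12 (chr11:107479278-107479309, plus strand): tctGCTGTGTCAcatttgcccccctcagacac
Psmd9 (chr5:123228139-123228187, plus strand): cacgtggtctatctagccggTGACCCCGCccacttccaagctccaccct
Psme4 (chr11:30771748-30771796, plus strand): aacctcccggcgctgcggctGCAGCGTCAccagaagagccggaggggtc

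In Psmb5, Psmb6, Psmd9 and Psme4 the match starts within 47 bases before the start, and in Psmc6 and Psmd12 over 200 bases before it. Among them Psmb5, Psmb6 and Psmd9 were called higher in replicate 2, and Psmc6, Psmd12 and Psme4 lower.

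The interferon-stimulated response element, searched as GAAA, NN for any bases, then GAAA, was found in 5 of 41 genes (12.2%), beside 3.99% of all genes. It was in none of the windows of the inducible subunits Psmb8, Psmb9 and Psmb10, which says only that these letters are not in those windows. It was in Psme1, an inducible cap subunit, and in Psmg4, both after the start and not shown, and in the following genes upstream of it.
Psmb3 (chr11:97703251-97703300, plus strand): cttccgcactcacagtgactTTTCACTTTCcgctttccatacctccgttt
Psmd4 (chr3:95042665-95042714, minus strand): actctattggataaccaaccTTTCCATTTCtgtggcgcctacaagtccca
Psmd9 (chr5:123228011-123228060, plus strand): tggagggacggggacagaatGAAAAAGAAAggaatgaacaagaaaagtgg

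The CCAAT box was found in 14 of 41 genes (34.2%), beside 41.1% of all genes, and the TATA box TATAAA in 4 (9.76%), beside 15.7%. The TATA box genes were Psmb4, Psmb8, Psmd1 and Psmd6.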

How the data were processed

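Expected counts, TPM and the percent of a gene's abundance in each transcript were deposited by the authors for 2 libraries, on mm10 with annotation M4 according to the deposited descriptions of the files. Aligner, counter and use of strand: not given in the sources used here. A gene and its antisense partner may therefore share reads. Totals were 22775991 and 19685821 counts. Symbols, coordinates (1-based) and GC content came from GENCODE M21 of the same assembly, with GC weighted by TPM. Mitochondrial genes (37) and 11 nuclear copies (blastn 2.17.0, at least 95% identity over 90% of length) were left out of nuclear TPM.

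Expected counts were rounded and compared with edgeR 4.0.16 (R 4.3.3; binomTest, two-sided, exact binomial with a chi-square approximation for large totals, TMM, at least 20 counts, 0.5 added to log2 ratios). A call needed a Benjamini-Hochberg adjusted p below 0.05 and at least a 2-fold ratio. The GC trend was the median log2 ratio in 50 GC bins. Alternatives used DESeq2 1.42.0 size factors, nuclear totals, other filters, pseudocounts and the deposited posterior means. Tested on simulated counts without biological spread, the calls recovered 49 of 50 genes set 2.5-fold apart and 1 of 50 set 1.5-fold apart, and 6 of 13242 tested genes were called falsely. Where a GC trend was drawn in and removed, 49 and 1 were recovered and 71 of 13129 were called falsely.

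The genes named are, in each role class, the 3 highest and 2 lowest by mean nuclear TPM, all inducible, tissue-restricted, activator, inhibitor and chaperone genes, and all called lower. In other lists they are the 4 highest and those called lower. The values of 3 genes that this rule takes from the other lists are not reported here. Other names were chosen after their values were seen. The members and lists were chosen with earlier results of these data known. GC ranges, the transcript minimum of 20 counts per library and the sequences shown were chosen after seeing the data, and the shown sequences are illustrations. Identity between subunit proteins was not analysed here.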

Additional observations from a re-analysis of the deposited data

How the results depend on the processing

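The 23 higher and 6 lower calls became 22 and 7 with DESeq2 size factors, 26 and 6 with nuclear totals, 26 and 5 with all genes of at least 1 count, 23 and 6 with posterior mean counts and 28 and 13 by adjusted p alone. They became 16 and 0 with the GC trend removed, and 13 higher without the 6 genes of differing length, which also leaves fewer genes. The median log2 ratio was 0.84 with DESeq2 size factors, 1.08 with nuclear totals, 1.15 with at least 1 count and 0.55 with the GC trend removed. DESeq2 size factors also moved the median of all genes by about as much (from 0.21 to 0.11), and nuclear totals moved it to 0.35. Psme1 over Psme2 (log2) was 0.56 with posterior means and 1.65 with replicate 1 adjusted for GC, and Psme4 over Psme3 was 0.87 with that adjustment. The cause of these changes was not tested.

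On TPM as deposited, mean summed levels were 348 for the alpha ring, 317 for the beta ring, 224 for ATPases, 308 for non-ATPase subunits, 37.8 for chaperones, 121 for activators and 0.31 for Psma8, since mitochondrial RNA is then in the denominator. With posterior mean TPM, ATPases had 814 and chaperones 137. With 1 library left out, a value is that of the other library, given in the text, and the count of shared leading transcripts has no value. No paired analysis was possible because there is 1 group. Low counts in replicate 1, at 7 or fewer each, limit the precision for Psmb5, Psmb8, Psmb9, Psmb10, Psmg3 and Psmg4.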
